A study of Mus musculus with 7 samples.

Results

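The Ikaros family comprises 5 zinc-finger transcription factor genes, Ikzf1 to Ikzf5, and the occupancy of the transcription factor Runx3 and of the histone mark H3K4me1 around them was examined in resting CD8-TC (CD8+ T cells, the lymphocytes that kill infected cells). The members were the regions of the Runx3 and H3K4me1 lists whose midpoint fell in the body of an Ikaros family gene or within 50 kb of it. These windows held 6 of 4934 Runx3-bound regions and 94 of 76705 H3K4me1-marked regions. ChIP-seq had been conducted on CD8+ cells taken from the spleens of WT mice of strain ICR, with 18 pooled mice given for each library. The cells were positively selected on anti-CD8 magnetic beads and fixed, and no group had received a treatment. The 7 libraries comprised 3 for Runx3 from 2 biological repeats (in-house polyclonal antibody), 2 for H3K4me1 (monoclonal antibody) and 2 controls with rabbit non-immune serum (NIS). The repeats of each antibody had been joined before calling, so that each list is a single call on pooled animals, with neither a replicate error nor a height for any region, and the depth behind a region is unknown here. All comparisons below are therefore descriptions of positions, counts and lengths, and no difference was tested.

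Ikaros family proteins bind DNA through zinc fingers near the amino terminus, with TGGGAA as the core of the sequence that Ikaros recognises, and pair with each other through zinc fingers at the carboxyl terminus. Ikzf1 (Ikaros) is required for lymphocyte development, Ikzf3 (Aiolos) is best known from B cells, and Ikzf2 (Helios) and Ikzf4 (Eos) are best known from regulatory T cells, where Eos partners with Foxp3. Ikzf5 (Pegasus) is the most divergent member and recognises a different sequence. H3K4me1, the monomethylation of histone H3 at lysine 4, marks enhancers and the flanks of active promoters, and Runx3 is a transcription factor of the RUNX family needed for the CD8 lineage.

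Runx3-bound regions were found at 2 of the 5 genes, with 4 regions at Ikzf1 and 2 at Ikzf3, and 30.8% of 22350 protein-coding genes had at least 1 in such a window. The windows of Ikzf2, Ikzf4 and Ikzf5 held none. A stretch of each bound region is shown because it carries letters that Runx proteins recognise. The RUNX motif was searched on both strands in the most common form TGTGGT, in the form TGTGGC and in the rarer forms TGCGGT and also TGCGGC, and matches are in capitals. A match of the minus strand reads ACCACA where the form is the first of these and GCCACA where it is the next. The sequences are the plus strand of the reference genome mm9, 5′ to 3′, whereas the mice were of strain ICR. For 3 regions of Ikzf1 the 200 bp around the midpoint are given, at chr11:11557246-11557445, chr11:11641758-11641957 and chr11:11666255-11666454.
Ikzf1 region 1: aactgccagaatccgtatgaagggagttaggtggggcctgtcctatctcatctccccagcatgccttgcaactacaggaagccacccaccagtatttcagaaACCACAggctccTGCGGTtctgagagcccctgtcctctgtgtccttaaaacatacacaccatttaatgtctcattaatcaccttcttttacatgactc
Ikzf1 region 3: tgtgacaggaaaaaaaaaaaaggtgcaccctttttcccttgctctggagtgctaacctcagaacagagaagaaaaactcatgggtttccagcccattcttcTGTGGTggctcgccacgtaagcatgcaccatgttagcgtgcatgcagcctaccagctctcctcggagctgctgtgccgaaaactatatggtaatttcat
Ikzf1 region 4: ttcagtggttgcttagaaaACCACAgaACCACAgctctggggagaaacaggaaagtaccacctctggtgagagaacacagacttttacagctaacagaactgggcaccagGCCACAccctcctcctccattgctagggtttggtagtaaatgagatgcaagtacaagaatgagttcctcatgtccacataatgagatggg

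The remaining 3 regions had no RUNX match in those 200 bp, and 80 bp around the match nearest to the midpoint are given instead, at chr11:11626035-11626114, chr11:98325274-98325353 and chr11:98411222-98411301.
Ikzf1 region 2: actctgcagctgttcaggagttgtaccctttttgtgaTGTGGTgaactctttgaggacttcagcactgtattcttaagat
Ikzf3 region 1: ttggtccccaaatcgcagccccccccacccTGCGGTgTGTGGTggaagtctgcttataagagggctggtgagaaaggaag
Ikzf3 region 2: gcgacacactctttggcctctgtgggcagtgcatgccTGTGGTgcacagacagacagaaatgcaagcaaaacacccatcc

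Ikzf1 lies on the plus strand at chr11:11585006-11672929 and its window of 187.9 kb held 4 Runx3-bound regions. A window held at least 2 such regions for 10.1% of protein-coding genes and at least 4 for 1.34%. Region 1 (chr11:11556870-11557822, 953 bp) lay 27.7 kb upstream of the gene start, inside the non-coding RNA gene Gm11999. Regions 2 (chr11:11625698-11626760, 1063 bp) and 3 (chr11:11641412-11642305, 894 bp) both lay in intron 3 of the 7 introns of its longest coding transcript, 41.2 and 56.9 kb after the start. Their midpoints were 15629 bp apart. Region 4 (chr11:11665829-11666882, 1054 bp) lay in intron 7, 81.3 kb after the start. The nearest start of a coding transcript to region 4 was that of the neighbouring gene Fignl1, at 42580 bp, while the nearest Ikzf1 start was 66133 bp away. Thus 3 of the 4 regions were intragenic, and all 4 were 26007 bp or more from any annotated Ikzf1 start.

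Ikzf3 lies on the minus strand at chr11:98326216-98407345 and had 2 Runx3-bound regions, both outside the gene body. Region 1 (chr11:98325095-98325779, 685 bp) had its midpoint 779 bp beyond the 3′ end of the gene, and the nearest start of a coding transcript was that of Grb7, a signalling adaptor gene, at 17289 bp, while a non-coding transcript of Ikzf3 starts 13280 bp away. Region 2 (chr11:98411068-98412046, 979 bp) lay 4.21 kb upstream of the start of Ikzf3 and only 854 bp from that of Zpbp2, a gene known from sperm, which is read in the opposite direction. For neither region was the nearest coding start that of Ikzf3, but with non-coding transcripts included region 1 was nearer to an Ikzf3 start than to that of Grb7. None of the 6 regions overlapped an annotated exon of any gene. They were 685 to 1063 bp wide with a median of 966 bp, against 851 bp for the whole list.

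The rule set the border of the windows, and the nearest Runx3-bound region outside it differed widely in distance. For Ikzf2 it lay 67.0 kb upstream (chr1:69799233-69799912), with Ikzf2 as the gene of the nearest coding start, and it overlapped an H3K4me1-marked region. For Ikzf4 it lay 70.3 kb upstream and nearest to the start of Pmel. For Ikzf1 and Ikzf3 the next regions were 121 and 109 kb from the gene, and for Ikzf5 the nearest region of the list was 495 kb away. Just inside, the outermost region lay 27.7 kb from Ikzf1 and 4.21 kb from Ikzf3. With a margin of 100 kb in place of 50 kb, Ikzf2 and Ikzf4 each had 2 regions and Ikzf5 still had 0.

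**Figure D1:**
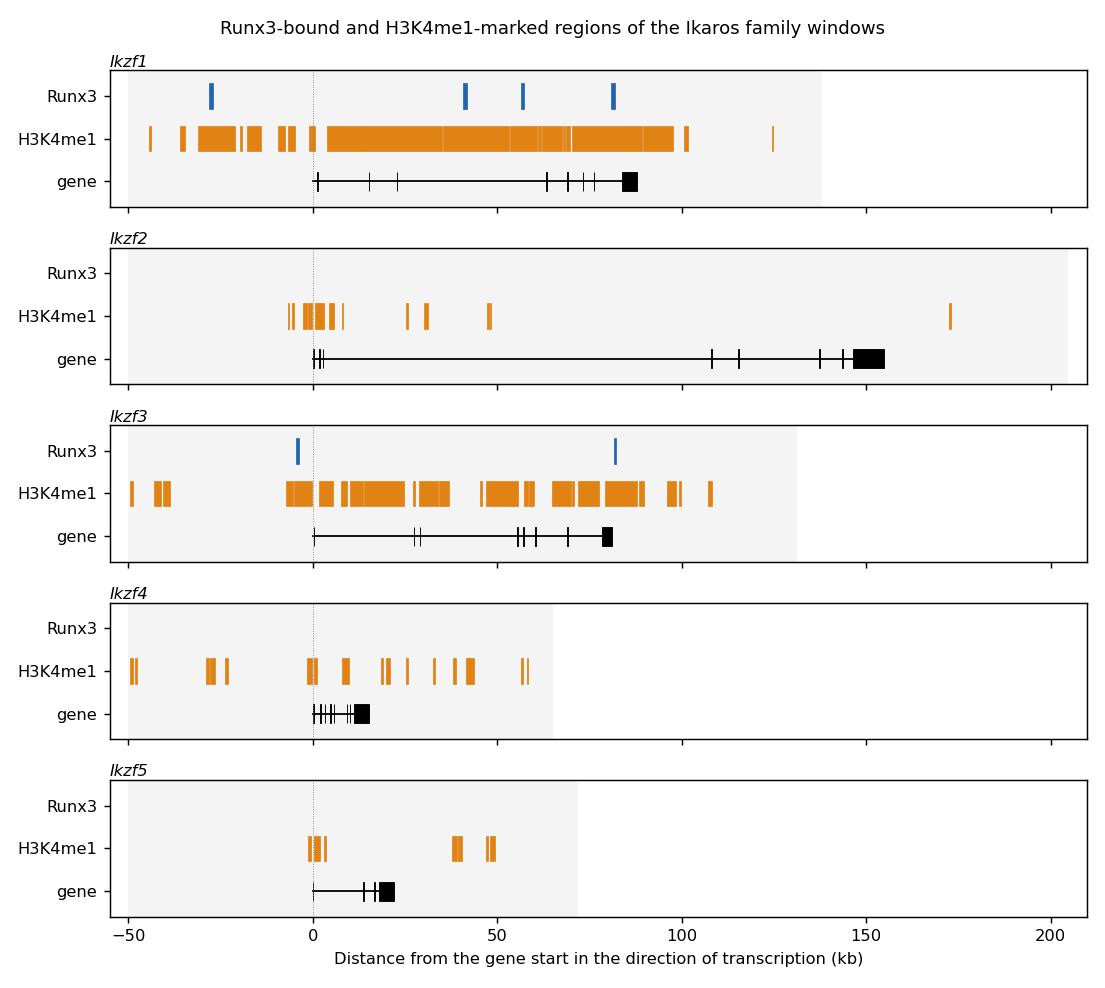
Maps of the 5 windows, with the distance from the gene start in the direction of transcription in kb on the horizontal axis. Blue boxes are Runx3-bound regions, orange boxes are H3K4me1-marked regions, black boxes are the exons of 1 coding transcript per gene, and the grey field is the window. The 4 Runx3-bound regions of Ikzf1 and the 2 of Ikzf3 all lie on orange, and orange fills nearly the whole body of Ikzf1.

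H3K4me1-marked regions covered 60.9% of the Ikzf1 window, 41.9% of that of Ikzf3, 13.6% of that of Ikzf4, 6.12% of that of Ikzf5 and 4.15% of that of Ikzf2. The median protein-coding gene had 5.96%, 10% of genes exceeded 22.5% and the maximum was 78.3%. A cover as high as that of Ikzf1 was found for 0.0850% of genes, and as high as that of Ikzf3 for 0.725%. The shares of genes at or above Ikzf4, Ikzf5 and Ikzf2 were 24.7%, 49.3% and 58.2%, so that the last 2 lay near the middle of all genes. At least 1 marked region was present for all 5 members, and for 79.3% of protein-coding genes.

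The number of marked regions followed another order than the cover. The windows held 28 regions for Ikzf1, 29 for Ikzf3, 17 for Ikzf4, 13 for Ikzf2 and 7 for Ikzf5. Ikzf1 and Ikzf3 thus had nearly equal counts. The median width was 1634 bp at Ikzf1, 1580 bp at Ikzf3, 1112 bp at Ikzf5, 818 bp at Ikzf4 and 607 bp at Ikzf2, against 979 bp for the list. Regions of 5000 bp or more numbered 6 at Ikzf1 and 4 at Ikzf3, with none at the other 3 genes, and 2132 of the 76705 regions of the list were that wide. The widest of Ikzf1 (chr11:11598902-11620132) measured 21231 bp and ranked 21 in the list. The next ranked 45 (17923 bp) and 94 (14535 bp), and each of these latter regions held a Runx3-bound region. The widest of Ikzf3 (chr11:98382668-98393581, 10914 bp, in intron 1) ranked 235 and held none. The widest of Ikzf2, Ikzf4 and Ikzf5 measured 2416, 1774 and 1669 bp.

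**Figure D2:**
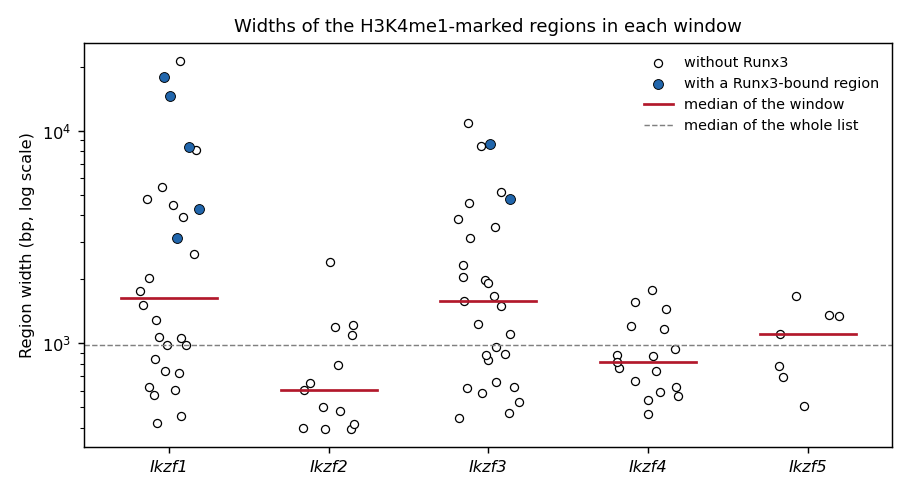
Width in bp, on a log axis, of each H3K4me1-marked region by gene. Filled points overlap a Runx3-bound region, open points do not, red lines are the medians of the windows and the dashed line is the median of the list (979 bp). The filled points of Ikzf1 and Ikzf3 lie between 3117 and 17923 bp, all above the medians of their windows.

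The cover of Ikzf1 was concentrated in the gene itself. Marked regions took up 82.6 of the 87.92 kb of its body (93.9%), 42.3% of the 50 kb upstream and 21.6% of the 50 kb downstream. A body cover this high was found for 136 of the 22350 protein-coding genes (0.609%). Among the 4837 protein-coding genes with a body of 50 kb or more, a limit chosen after the values were seen, only Ikzf1 reached this cover, and the next was Foxo1, a transcription factor of resting T cells, with 93.3%. The median of these 4837 genes was 3.19%. The body of Ikzf3 was covered to 65.1% (52.8 of 81.13 kb), a value that 754 of the 22350 genes (3.37%) and 27 of the 4837 had or exceeded, and its flanks to 22.8% upstream and 23.4% downstream. For Ikzf4 the cover was similar in the body (16.8%), upstream (12.6%) and downstream (13.6%). For Ikzf5 it was 9.96% in the body, 1.57% upstream and 8.99% downstream.

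Ikzf2 had the longest body of the family, 154.7 kb, of which 4.43% was marked. Its marked regions gathered at the start: the largest unmarked stretch, of 124 kb, ran from 48.4 kb after the start to beyond the 3′ end, and 43.2 kb at the upstream edge of the window held none either. In the body of Ikzf1 the largest unmarked stretch was 3.26 kb.

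**Figure D3:**
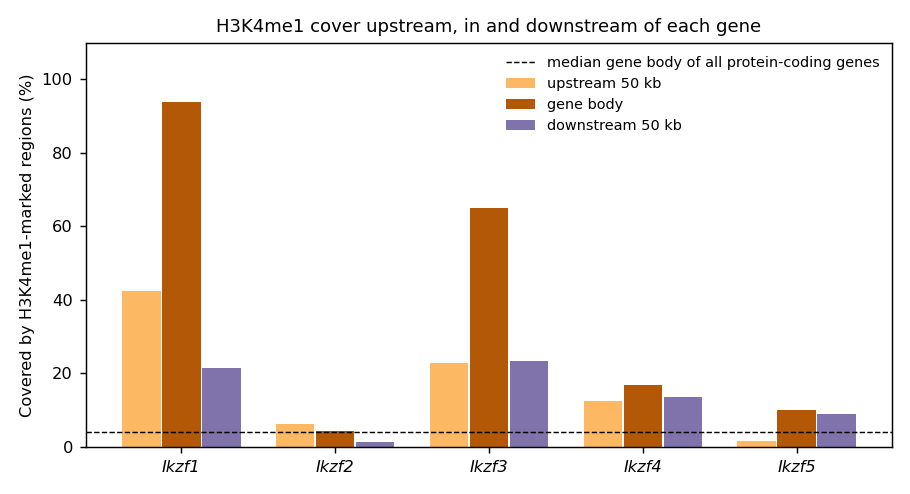
Percent of the upstream 50 kb, the gene body and the downstream 50 kb of each gene that is covered by H3K4me1-marked regions. The dashed line is the median gene body of all protein-coding genes (4.13%). The bars of the gene body reach 93.9% at Ikzf1 and 65.1% at Ikzf3 and stay at or below 16.8% at the other 3 genes.

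Where neighbouring marked regions within 1000 bp of each other were joined, the 28 regions of the Ikzf1 window became 10. A single stretch of 93911 bp (chr11:11588722-11682632) then joined 16 regions, from 3.72 kb after the gene start to beyond the 3′ end, and held 3 of the 4 Runx3-bound regions. It was the widest of the 48165 joined stretches of the list. The rank depended on the joining distance: the Ikzf1 stretch was the widest with 500 bp (66.0 kb), ranked 4 with 2000 bp and 5 with 3000 bp (97.9 kb), distances added after the data were examined. At Ikzf3 the widest joined stretch measured 16.9 kb and ranked 406, and at the other 3 genes it measured 5.83 kb or less.

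The gene starts were themselves mostly unmarked. Of the members only the start of Ikzf1 fell in an H3K4me1-marked region (chr11:11584735-11585462, 728 bp), and 17.7% of protein-coding gene starts did. This region overlaps the first of 8 annotated Ikzf1 start sites. The next 4, including that of the longest coding transcript, fell in the unmarked stretch of 3.26 kb behind it. The remaining 3 were marked. At Ikzf2, Ikzf4 and Ikzf5 the gene start lay in an unmarked interval of 787, 440 and 780 bp with marked regions within 1000 bp on both sides, an arrangement found at 25.7% of protein-coding genes. At Ikzf3 the unmarked interval was 1842 bp, with a marked region 278 bp upstream and the next 1565 bp downstream. The start of Acadsb, an acyl-CoA dehydrogenase gene, lies 80 bp from that of Ikzf5 on the opposite strand, so that the marked regions there cannot be assigned to either gene.

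Other genes shared the windows to different degrees. By the nearest coding start, all 13 marked regions of the Ikzf2 window were nearest to Ikzf2 itself, as were 19 of 28 at Ikzf1, 10 of 29 at Ikzf3, 3 of 17 at Ikzf4 and 2 of 7 at Ikzf5. At Ikzf1, the start of Fignl1 was nearest to 7 regions and that of 4930512M02Rik to 2. At Ikzf3, 3 regions were nearest to the start of Ormdl3, 2 to that of Zpbp2 and 1 to that of 1810046J19Rik. A further 13 regions had that of Grb7 as the nearest coding start, but 8 of these lay in introns of Ikzf3 and 9 were nearer to the start of a non-coding Ikzf3 transcript. At Ikzf4, Suox, Rps26, Rab5b, Erbb3 and Gm9182 had nearer starts, and at Ikzf5 those of Pstk and 2310057M21Rik were nearest to 2 regions each and that of Acadsb to 1.

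All 6 Runx3-bound regions overlapped H3K4me1 (exact 95% interval 54.1 to 100%, counting error only), and 78.8% of all Runx3-bound regions did. The interval takes the regions as independent, although they came from only 2 genes. In the body of Ikzf1, which held 3 of them, 93.9% of the sequence was marked, so that most positions there would overlap. In 5 of the 6 the whole region was marked, and in region 3 of Ikzf1 98.2% of it was, across the gap between regions of 3117 and 4299 bp. The midpoint lay inside a marked region in all 6. The regions around them were broad: 8351 bp for region 1 of Ikzf1, 17923 bp for region 2, 14535 bp for region 4, 8691 bp for region 1 of Ikzf3 and 4789 bp for region 2. Both lists had been called against the same NIS libraries, and the part of that in the overlap was not tested.

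**Figure D4:**
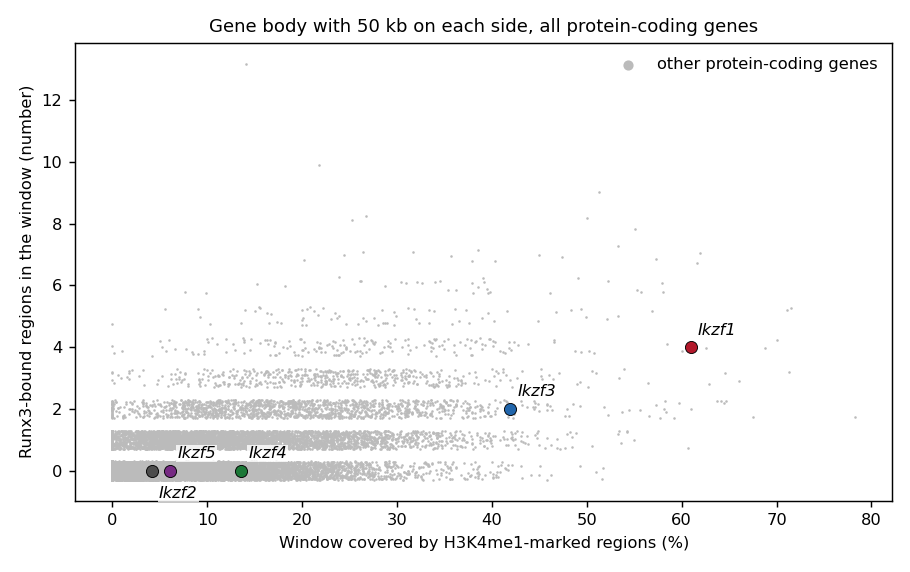
Percent of the window covered by H3K4me1-marked regions against the number of Runx3-bound regions in it, for 22350 protein-coding genes, with grey points shifted slightly on the vertical axis so that they do not hide each other. The 5 members are coloured. Ikzf1 lies at 60.9% and 4 regions, Ikzf3 at 41.9% and 2, and the others at 0 regions and 13.6% or less.

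Considered jointly, 8 of the 22350 genes (0.0358%), Ikzf1 among them, had at least as many Runx3-bound regions and at least as high an H3K4me1 cover as Ikzf1, and 107 (0.479%) had as much of both as Ikzf3. Per 100 kb of window, Ikzf1 had 2.13 Runx3-bound regions, a density that 2.46% of genes had or exceeded, and Ikzf3 had 1.10, with 8.80% of genes at or above it. Windows of neighbouring genes share regions, so that these counts of genes are not counts of separate loci. Among genes with the same number of Runx3-bound regions, the closest in H3K4me1 cover to Ikzf1 were Atp6v1g2 (60.1%) and Nfkbil1 (62.6%), and to Ikzf3 Pptc7 (42.1%) and Cxxc5 (42.2%), each over the 2 lists. Their windows were kept apart from that of the member but could overlap each other. For the members with 0 regions 15460 or more genes shared the count, so that the likeness of Mefv and Zmym2 to Ikzf2, of Fdx1l and 1100001G20Rik to Ikzf4 and of Gzf1 and Camk2n1 to Ikzf5 rests on cover alone.

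The RUNX motif was found in all 6 Runx3-bound regions over their whole length, and 88.8% of the list had it. In the 200 bp around the midpoint it was found in 3 of 6 (50%, exact 95% interval 11.8 to 88.2%, regions taken as independent). This compares with 66.0% of the list and 32.1% of H3K4me1-marked regions without Runx3. The lists give no summit, so that the midpoint need not be the position of strongest binding. Region 1 of Ikzf1 had matches 4 and 16 bp after the midpoint, and region 3 had TGTGGT 3 bp after it. Region 4 had the most, 5 over its length and 3 in the 200 bp, of which the closest pair started 8 bp apart. In region 2 of Ikzf1 the nearest match was 155 bp from the midpoint. Region 1 of Ikzf3 carried TGCGGT and TGTGGT 7 bp apart, separated by a single base, with the nearer of them 124 bp before the midpoint. In region 2 of Ikzf3 the nearest match was 296 bp away.

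The ETS core was searched on both strands as AGGAAG or with a final A as AGGAAA, and with a leading C as CGGAAG or again with a final A as CGGAAA, the letters that ETS factors recognise. It was found in the 200 bp around the midpoint in all 6 regions (exact 95% interval 54.1 to 100%), and in 63.8% of the list. Of H3K4me1-marked regions without Runx3, 50.3% had it there. Over the whole region, 95.0% of the list had it. The distance between the starts of the closest RUNX and ETS matches was 11 bp in region 3 of Ikzf1, 14 bp in region 4, 27 bp in region 1 and 74 bp in region 2, and 37 and 230 bp in the regions of Ikzf3. The Ikaros core TGGGAA was found in those 200 bp in 1 of 6, region 2 of Ikzf1, and in 14.3% of the list. Over the whole region it was present in 3 of 6, against 52.4% of the list. A match describes letters only, and binding by ETS or Ikaros proteins was not measured.

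**Figure D5:**
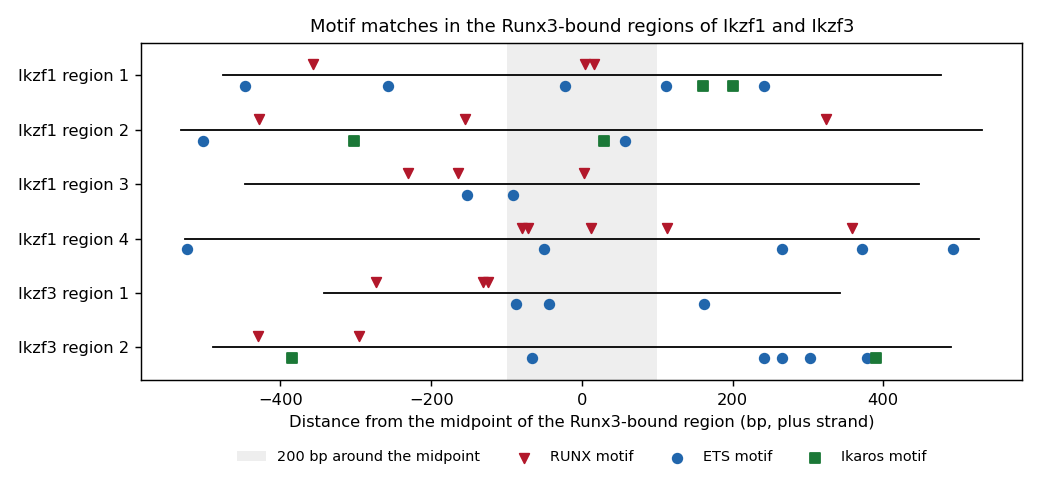
Matches to the RUNX (red triangles), ETS (blue circles) and Ikaros (green squares) motifs in each Runx3-bound region of Ikzf1 and Ikzf3, by distance in bp from the midpoint on the plus strand. Black lines give the extent of the region and the grey band the 200 bp around the midpoint. RUNX matches fall in the band in regions 1, 3 and 4 of Ikzf1 and outside it in the other 3 regions.

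The RUNX letters were far more frequent than the bound regions. The Ikzf1 window held 354 matches, of which 242 lay in H3K4me1-marked and 14 in Runx3-bound sequence. The Ikzf3 window held 350, with 148 in marked and 5 in bound sequence. Ikzf2 had 305 matches and no bound region, and 12 of its matches were marked. Ikzf4 had 179 (30 marked) and Ikzf5 175 (13 marked). From Ikzf1 to Ikzf5, the marked share of matches was 68.4, 3.93, 42.3, 16.8 and 7.43%, and the H3K4me1 cover 60.9, 4.15, 41.9, 13.6 and 6.12%. Per kb, the windows of Ikzf1 and Ikzf3 held 1.88 and 1.93 matches and those of Ikzf4, Ikzf5 and Ikzf2 1.55, 1.44 and 1.20. In the same order, G and C made up 43.2, 47.2, 46.3, 41.8 and 39.2% of the bases, and their part in the match counts was not tested. Of the 87 marked regions without Runx3, 28 (32.2%) had a RUNX match in the 200 bp around their midpoint, and 32.1% of such regions of the list did.

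The genes of the family's protein partners were described with the same windows. The list held 22 genes, and 12 of them (54.5%) had at least 1 Runx3-bound region, against the 30.8% of all genes. For NuRD, the chromatin remodelling and deacetylase complex that Ikaros recruits, it was 11 of 13 genes. Chd4, the remodelling ATPase, Hdac1, a deacetylase, and Mta3 had 3 regions each, and Hdac2 and Rbbp7 had 0. Within the gene body, Mta3 had 2 regions, Chd4, Mbd2 and Gatad2a had 1 each, and Hdac1 and the remaining NuRD genes had 0. The other regions thus lay in the flanks of the windows, which can hold neighbouring genes. H3K4me1 covered 2.15 to 35.7% of the NuRD windows, with a median of 22.8%. The corepressor genes Sin3a, Sin3b, Ctbp1 and Ctbp2 had no Runx3-bound region, and neither did the genes of the cereblon ubiquitin ligase (Crbn, Ddb1, Cul4a and Cul4b), through which drugs of the thalidomide class degrade Ikaros and Aiolos. Foxp3 had 2. No partner window reached the cover of Ikzf1 or Ikzf3.

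The cell type label was set against markers by the same count. All 6 T cell genes (Cd3d, Cd3e, Cd3g, Cd247, Cd5 and Lck) and both CD8 genes (Cd8a and Cd8b1) had Runx3-bound regions, with H3K4me1 cover of 24.6 to 48.1% and of 29.0 to 37.9%. Cd3d, Cd3e and Cd3g are neighbours, as are Cd8a and Cd8b1, so that their windows share regions. Of the B cell genes, Cd79a had 2 Runx3-bound regions and a cover of 22.5%, Pax5 1 and 16.5%, and Ms4a1 0 and 11.8%. The region of Pax5 lay in its body. The body of Cd79a held 0, as did those of Cd3e, Cd3g, Cd5, Cd8a and Cd8b1. A Runx3-bound region in the window was thus not confined to T cell genes, and 30.8% of all protein-coding genes had at least 1. Of the NK cell genes 1 of 2 had a Runx3-bound region, with covers of 0 to 19.2%. For myeloid genes these values were 1 of 4 and 1.49 to 22.9%. The cover of the Ikzf1 window was above that of each of these marker windows. The part of other cells in the pool was not tested.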

How the data were processed

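The authors aligned reads of 40 to 42 bp to mm9 with ELAND, kept unique reads, joined repeats per antibody and ran MACS with NIS as the control, scaling the larger data set to the smaller. The submitters' processing notes name CASAVA 1.6 and 1.7. The deposited lists give positions only, so that no score, read number or replicate spread could be used. No list of NIS regions was used here.

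Starts were moved by 1 bp to browser positions. The genome and GENCODE annotation of NCBIM37, which is mm9, gave genes, exons and sequence. A region was assigned by its midpoint. Overlap required 1 bp, and cover was clipped to the window. Members were set against 22350 protein-coding genes of chromosomes 1 to 19 and X, without a test. Intervals are exact (Clopper-Pearson, 95%), take regions as independent and cover counting error only. Scripts were tested on simulated regions. The text names all 5 genes, each Runx3-bound region, the widest H3K4me1-marked region of each window with those over a gene start or a Runx3-bound region, genes with nearer starts, the 2 most alike genes of each member, and the partner and marker lists. 1 gene of the marker list is not reported here. The members and lists were chosen with earlier results of these data known. Alternatives changed the margin, the assignment, the width, the overlap and the motif window. Python 3.11.15, numpy 2.4.6, pandas 2.3.3, scipy 1.17.1 and matplotlib 3.10.9 were used.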

Additional observations from a re-analysis of the deposited data

How the results depend on the processing

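Over the 5 windows, the Runx3-bound regions numbered 6, at 2 genes. Within the gene bodies alone there were 3 regions at 1 gene, with a margin of 100 kb 10 regions at 4 genes, and with assignment to the nearest coding start 3 regions at 1 gene, Ikzf1. The 94 H3K4me1-marked regions became 44 in the gene bodies alone, 62 with a margin of 10 kb, 47 by the nearest coding start, 48 when neighbours within 1000 bp were joined and 50 when restricted to the list's median width or more. H3K4me1 covered 26% of the 5 windows together, 40.7% of the gene bodies and 39.8% with a margin of 10 kb. Ikzf1, Ikzf3 and Ikzf4 held the 3 highest covers, in this order, under all 6 settings, and Ikzf2 and Ikzf5 changed places with a margin of 100 kb. Of the 6 Runx3-bound regions, the RUNX motif was found in 3 in the 200 bp around the midpoint, in 5 in 400 bp and in 6 over the whole region, and the Ikaros core in 1, 2 and 3. Over all 37252 annotated genes 26.2% had a Runx3-bound region, against 30.8% of protein-coding genes. Of 131 alternative values 77 stayed close to the reported value, within 1.5 times for counts and covers and within the 95% interval for the percentage of genes. Of the 36 values of single genes that did not, 28 were lower and 8 higher. The 77 include Runx3 counts of Ikzf2, Ikzf4 and Ikzf5 that stayed at 0, and assignment by any overlap with the window, which changed no count. The 131 include the joining distances added after the data were examined. Leaving out a repeat was not run. No paired analysis was possible because the lists had been called on joined repeats and carry no replicate number. Without read counts, depth limits for single regions could not be given.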
